A study of Mus musculus with 18 samples.

Results

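The genes described here control passage through G1, the phase of the cell cycle before DNA synthesis. There were 10 of them among the 51290 genes of a deposited count table. They were chosen by name: Cdkn2a, Cdkn2b and Mtap, which lie side by side on chromosome 4, the CDK inhibitors Cdkn2c, Cdkn1a, Cdkn1b and Cdkn1c, and Rb1, Cdk4 and Ccnd1. All 10 were found, and all 10 passed the filter on low counts in each comparison. RNA was measured in 18 mouse samples, 6 in each of 3 groups. The nerve group was normal trigeminal nerve of genotype Nf1 flox/flox PostnCre-. The neurofibroma group was trigeminal nerve with plexiform neurofibroma, a benign nerve tumour, of genotype Nf1 flox/flox PostnCre+. The third group was malignant peripheral nerve sheath tumour (MPNST) in mice that were Nf1 flox/flox and also Arf flox/flox, with PostnCre+, for which the labels give no body site. Every sample therefore carried floxed Nf1, and Cre was driven by the Postn promoter, which limits deletion to cells in which that promoter has been active. Arf was floxed in MPNST alone, so loss of Arf, tumour grade and tissue of origin cannot be told apart in either comparison with MPNST. Nerve alone was PostnCre-, so Cre, deletion of Nf1 and presence of tumour cannot be told apart in neurofibroma against nerve. In MPNST against nerve these add to the factors named before. The labels do not say whether the samples of a group came from separate animals, and p-values measure the spread between these samples.

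Cyclin D1, encoded by Ccnd1, binds the kinase CDK4, and the pair phosphorylates the retinoblastoma protein encoded by Rb1. Phosphorylation releases E2F transcription factors, which switch on genes of DNA synthesis. The INK4 proteins (p16 from Cdkn2a, p15 from Cdkn2b, p18 from Cdkn2c) bind CDK4 and CDK6, whereas the CIP/KIP proteins (p21 from Cdkn1a, p27 from Cdkn1b, p57 from Cdkn1c) act on a broader set of cyclin and kinase complexes. Cdkn2a has a second promoter whose transcript, through another reading frame, encodes ARF, an inhibitor of MDM2 and thereby an activator of p53. Mtap, the neighbouring gene, encodes an enzyme of methionine salvage and is often lost together with CDKN2A in human tumours.

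The promoter windows of the genes at the Cdkn2a locus and of Cdk4 are shown because the expression data turn on these genes and because Cdkn2a is transcribed from 2 starts, 12427 bases apart, that its gene-level count adds together. They run from 250 bases before to 50 bases after the start, come from RefSeq on GRCm38.p6, and are printed 5′ to 3′ on the strand of the gene. Capitals mark matches, on either strand, to TTTCCCGC or TTTGGCGC (an E2F motif), GGGCGG (SP1), CACGTG (E-box), TGACGTCA (CRE) or TGANTCA (AP-1). The windows lie at chr4:89294570-89294869 (minus strand) for the upstream Cdkn2a start, from which Arf is transcribed, at chr4:89282143-89282442 (minus) for the downstream start, from which the p16 transcript begins, at chr4:89310983-89311282 (minus) for Cdkn2b and at chr10:127063285-127063584 (plus) for Cdk4.
Cdkn2a, upstream start: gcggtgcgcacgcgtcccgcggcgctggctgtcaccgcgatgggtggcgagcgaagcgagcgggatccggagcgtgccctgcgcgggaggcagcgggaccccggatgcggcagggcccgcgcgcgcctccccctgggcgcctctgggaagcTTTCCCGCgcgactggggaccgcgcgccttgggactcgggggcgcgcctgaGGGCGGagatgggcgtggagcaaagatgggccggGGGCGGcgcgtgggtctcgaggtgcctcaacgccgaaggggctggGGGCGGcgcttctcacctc
Cdkn2a, downstream start: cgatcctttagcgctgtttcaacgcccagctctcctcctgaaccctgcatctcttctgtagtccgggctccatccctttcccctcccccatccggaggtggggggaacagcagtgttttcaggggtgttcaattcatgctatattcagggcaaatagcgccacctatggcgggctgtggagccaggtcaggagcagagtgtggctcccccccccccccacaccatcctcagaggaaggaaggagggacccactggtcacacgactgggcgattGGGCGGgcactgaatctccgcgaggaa
Cdkn2b: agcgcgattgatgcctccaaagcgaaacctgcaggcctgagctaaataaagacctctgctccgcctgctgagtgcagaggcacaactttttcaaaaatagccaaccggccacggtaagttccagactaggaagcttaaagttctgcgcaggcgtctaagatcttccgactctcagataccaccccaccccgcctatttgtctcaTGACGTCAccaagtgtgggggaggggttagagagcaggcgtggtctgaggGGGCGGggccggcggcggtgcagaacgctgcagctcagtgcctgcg
Cdk4: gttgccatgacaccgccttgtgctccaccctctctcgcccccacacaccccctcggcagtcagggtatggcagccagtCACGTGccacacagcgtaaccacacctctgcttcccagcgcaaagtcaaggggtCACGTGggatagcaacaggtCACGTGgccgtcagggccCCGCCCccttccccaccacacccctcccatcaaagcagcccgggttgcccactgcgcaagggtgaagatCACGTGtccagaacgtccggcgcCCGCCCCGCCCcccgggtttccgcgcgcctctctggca

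The upstream Cdkn2a window held 1 match to the E2F motif, which 1.56% of 32851 mouse promoter windows of the same length hold, and 3 matches to GGGCGG, which 35.7% hold. The downstream Cdkn2a window held 1 match to GGGCGG and none to the other motifs. The Cdkn2b window held 1 CRE match (1.79% of all windows) and 1 GGGCGG match. The Cdk4 window held 4 CACGTG matches (7.15% of all windows hold at least 1), and 3 GGGCGG matches on the other strand, 2 of which overlap by a base. No member's window matched the AP-1 motif, which 7.81% of windows hold. Beside these, the upstream of the 2 Cdkn1a windows held 2 matches to the p53 half-site (8.36% of windows), and the Mtap window held no match to any motif searched. These matches are descriptions of the letters. In all, 7 of the 10 genes had a window (10 windows). Ccnd1, Cdkn1c and Rb1 had none in the table.

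Nerve libraries held between 14303986 and 20335697 counts, neurofibroma libraries between 15307987 and 20056513, and MPNST libraries between 13886399 and 23652959. Several MPNST libraries stood apart from the other MPNST libraries in marker genes of particular tissues. In MPNST library 2, 7 salivary gland markers together reached 382300 CPM (counts scaled to library size) against at most 64.0 in any nerve or neurofibroma library, and its TMM scaling factor was 0.436 where the other libraries lay between 0.934 and 1.12. MPNST library 3 held skeletal muscle markers at 50590 CPM, the other MPNST libraries at most 16.4 CPM. MPNST library 6 held sensory neuron markers at 6799 CPM and sympathoadrenal markers at 4305 CPM, where the other MPNST libraries reached at most 171 and 2.28 CPM. Sensory neuron markers were higher still in the trigeminal groups, at 11930 to 20880 CPM in nerve and 13510 to 17710 CPM in neurofibroma. Sympathoadrenal markers reached at most 640 CPM in nerve and 298 CPM in neurofibroma. The pancreatic acinar markers of MPNST library 6 stood at 3853 CPM, against at most 29.4 in any other library. Neurofibroma library 1 held skeletal muscle markers at 1684 CPM and adipocyte markers at 522 CPM, where the other neurofibroma libraries reached at most 7.76 and 5.19 CPM. Schwann cell markers summed to between 5687 and 16290 CPM in nerve and between 14460 and 24560 CPM in neurofibroma. In MPNST the sum lay between 126 and 2228 CPM, with no marker at 0 in any MPNST library. Nf1 itself lay between 82.4 and 161 CPM in nerve, between 66.7 and 91.3 CPM in neurofibroma and between 28.1 and 123 CPM in MPNST; gene-level counts include reads outside a floxed part, so neither Nf1 nor Cdkn2a checks the deletions. In such bulk samples fewer cells of a type and less RNA per cell cannot be told apart. Values below are CPM of each library's total. Log2 changes come from fits on TMM-scaled library sizes, and in both MPNST comparisons the median log2 change of all genes was above 0 (0.223 against neurofibroma and 0.219 against nerve).

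**Figure D1:**
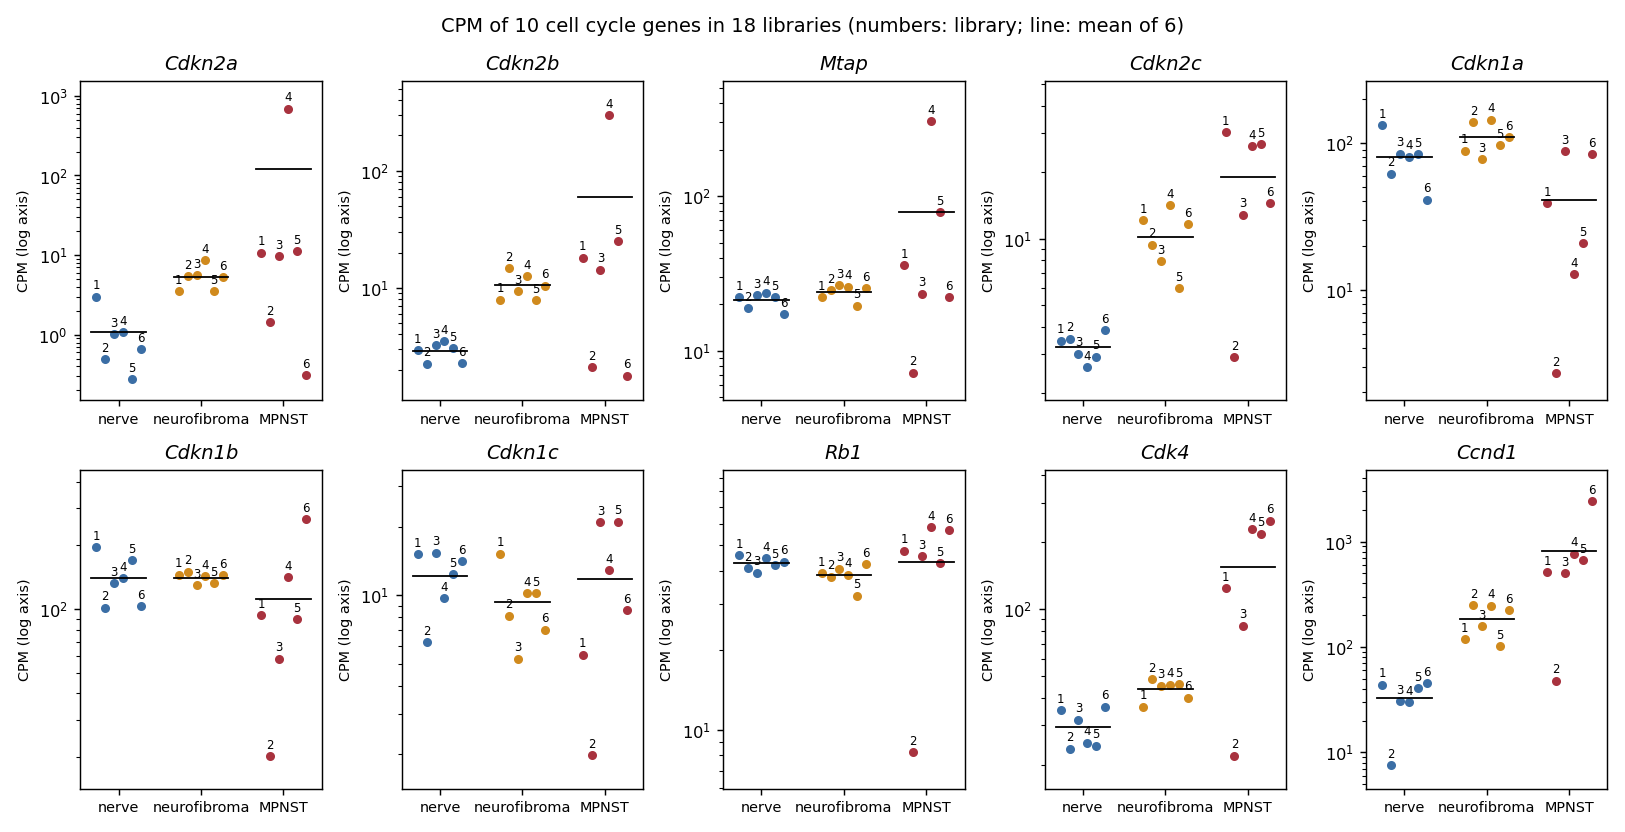
CPM of the 10 genes on log axes in nerve, neurofibroma and MPNST; each point is a library with its number, and the line is the mean of 6. MPNST library 4 reached 692 CPM for Cdkn2a and 299 for Cdkn2b, MPNST library 6 reached 2399 CPM for Ccnd1, and MPNST library 2 was the lowest MPNST library for 8 of the 10 genes on this scale, before TMM scaling.

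In neurofibroma against nerve, 5 of the 10 genes rose and none fell (edgeR quasi-likelihood test, adjusted p below 0.05). Over all 16464 genes tested, 7.94% were called higher and 6.00% lower. The 5 were the INK4 genes Cdkn2a, Cdkn2b and Cdkn2c together with Cdk4 and Ccnd1. Inhibitors and the cyclin and kinase they oppose were thus higher in the same libraries, while Mtap, the 3 CIP/KIP genes and Rb1 did not pass the test.

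Cdkn2a had 3.01, 0.492, 1.01, 1.08, 0.280 and 0.655 CPM in nerve libraries 1 to 6. It had 3.54, 5.42, 5.62, 8.58, 3.56 and 5.29 CPM in neurofibroma libraries 1 to 6. The groups did not overlap, but nerve library 1 came close to the lowest neurofibroma library. The fitted log2 change was 2.27 (SE 0.47, edgeR adjusted p = 0.0101). These levels rest on 4 to 59 counts per nerve library and 61 to 156 per neurofibroma library. The Cdkn2a count covers both transcripts. In the GENCODE M21 transcripts, 33.3% of the 31-base words of Cdkn2a-201 and 36.6% of those of Cdkn2a-202 belong to that transcript alone, and none of the gene's words occurs in another gene, so the count is specific to Cdkn2a without separating Arf from p16.

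Cdkn2b lay at 2.26 to 3.51 CPM in the nerve libraries (mean 2.89 ± 0.514, SD, n = 6). In neurofibroma it had 7.93, 14.7, 9.41, 12.6, 7.82 and 10.4 CPM, every library above every nerve library (log2 change 1.85, SE 0.19, adjusted p = 0.00103 by edgeR). Cdkn2c rose in the same way, from 3.24 ± 0.454 CPM in nerve to 10.2 ± 3.02 CPM in neurofibroma, again without overlap (log2 change 1.65, SE 0.21, adjusted p = 0.00166 by edgeR). Mtap, from which only 2 annotated pseudogenes separate Cdkn2a, had 21.2 ± 2.56 CPM in nerve and 24.1 ± 2.70 CPM in neurofibroma (log2 change 0.18, 95% interval -0.05 to 0.41, edgeR adjusted p = 0.265).

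Ratios within a library do not depend on how libraries are scaled, and 7 of them were compared in each of the 3 comparisons (21 exact two-sided permutation tests over all assignments of 12 libraries, smallest possible p 0.00216). The log2 ratio of Cdkn2a to Mtap was -4.56 ± 1.03 in nerve and -2.22 ± 0.350 in neurofibroma, a difference of 2.34 (exact permutation, adjusted p = 0.0114). The log2 ratio of Cdkn2b to Mtap was -2.86 ± 0.105 in nerve and -1.23 ± 0.285 in neurofibroma, a difference of 1.63 (exact permutation, adjusted p = 0.0114). Both inhibitors therefore rose relative to their neighbour. The ratio of Cdkn2a to Cdkn2b itself differed by 0.71, which missed the threshold (exact permutation, adjusted p = 0.218), with one nerve library, number 1, at 0.02 and the other five between -3.17 and -1.64.

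The CPM of Ccnd1 were 44.0, 7.52, 30.8, 29.9, 40.5 and 45.8 in nerve libraries 1 to 6. In neurofibroma libraries 1 to 6 they were 118, 248, 158, 247, 102 and 225. No neurofibroma library fell below 102 CPM and no nerve library exceeded 45.8 (log2 change 2.46, SE 0.37, adjusted p = 0.00274 by edgeR). Cdk4 moved far less: it had 29.4 ± 5.77 CPM in nerve and 43.7 ± 4.45 CPM in neurofibroma, and the highest nerve library (36.47 CPM) all but met the lowest neurofibroma library (36.50 CPM). Its log2 change was 0.57 (SE 0.12, edgeR adjusted p = 0.0106). The within-library log2 ratio of Ccnd1 to Cdk4 went from -0.01 ± 0.839 to 1.99 ± 0.528 (exact permutation, adjusted p = 0.0114), and that of Cdkn2c to Cdk4 from -3.15 ± 0.241 to -2.14 ± 0.538 (exact permutation, adjusted p = 0.0182).

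The CIP/KIP genes and Rb1 did not pass the test in neurofibroma. Cdkn1a, the p21 gene and a textbook p53 target, had 80.9 ± 30.5 CPM in nerve and 109 ± 27.2 in neurofibroma with overlapping groups (log2 change 0.43, 95% interval -0.08 to 0.94, edgeR adjusted p = 0.231). Cdkn1b, the p27 gene, had mean levels of 141 CPM in both groups, with a wider range in nerve (102 to 196) than in neurofibroma (129 to 150), and a 95% interval of the log2 change from -0.32 to 0.32. Cdkn1c had 12.2 ± 3.60 CPM in nerve and 9.34 ± 3.44 CPM in neurofibroma (log2 change -0.37, 95% interval -0.95 to 0.20). Rb1 lay at 39.4 to 45.7 CPM in nerve and 32.2 to 42.5 CPM in neurofibroma (log2 change -0.15, 95% interval -0.32 to 0.02). Markers of cell types differed as well. Of 12 Schwann cell markers 6 rose. Of 7 fibroblast markers, which summed to 759 to 2604 CPM in nerve and 4016 to 8336 CPM in neurofibroma, 6 rose. Over all genes 7.94% rose and 6.00% fell. Among other lists 1 of 8 macrophage markers rose and none of 6 endothelial markers passed. Those that fell were 1 of 15 sensory neuron, 1 of 4 satellite glia and 2 of 5 tested sympathoadrenal markers. The part of these cells in the changes of Cdkn2a, Cdkn2b, Cdkn2c, Cdk4 and Ccnd1 was not tested. Fitted within 1 model of all 18 libraries, whose spread includes that of MPNST, none of the 10 genes passed (edgeR adjusted p from 0.111 upward for the 5 named, with 4 of 10 at an unadjusted p below 0.05), at near-identical log2 changes. DESeq2 called the same 5 genes.

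**Figure D2:**
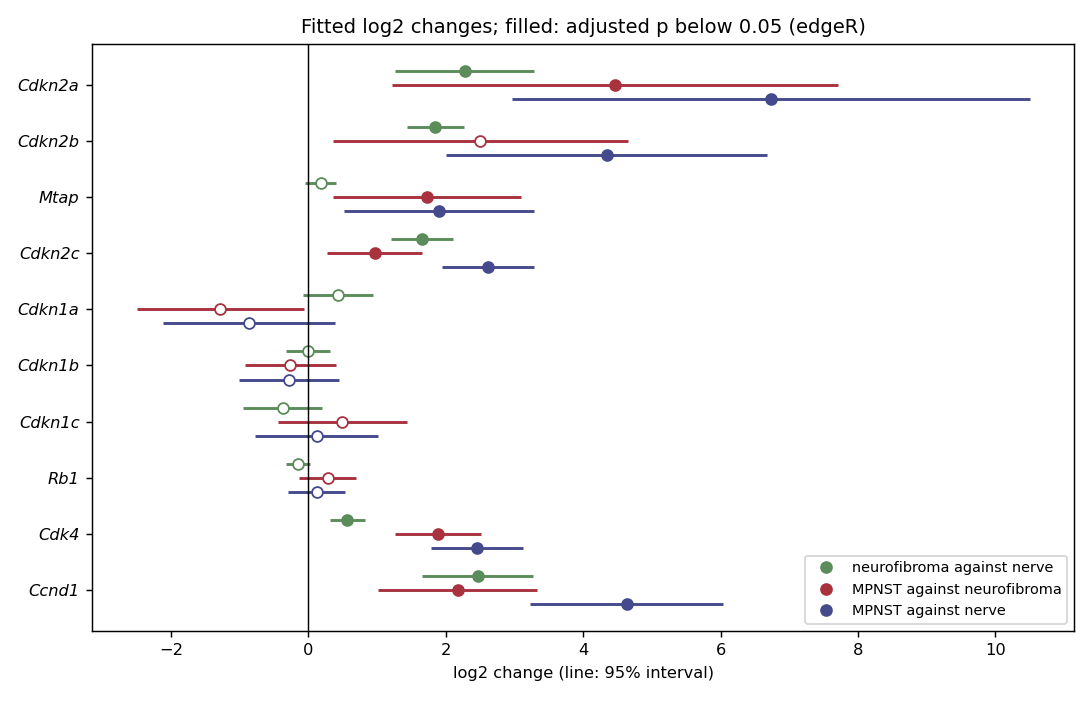
Fitted log2 change of each gene (x axis) in the 3 comparisons, with its 95% interval as a line; filled points passed adjusted p below 0.05 in edgeR. Cdkn2a, Cdkn2c, Cdk4 and Ccnd1 are filled in all 3 comparisons, and Cdkn2a has the widest intervals, from 2.96 to 10.5 in MPNST against nerve.

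In MPNST against neurofibroma, 5 of the 10 genes rose (Cdkn2a, Mtap, Cdkn2c, Cdk4 and Ccnd1) and none fell. Over all 16537 genes tested, 25.3% were called higher and 16.8% lower. The count was unstable. Leaving out 1 library at a time moved it between 2 and 8. Without libraries 2 and 6, 7 rose and 2 fell, where over all 17280 genes tested 5306 rose and 4928 fell. Without library 3 as well, 6 rose and 2 fell, where 5722 of 17900 genes rose and 5525 fell. With all libraries 4176 of the 16537 genes rose and 2772 fell, so calls over all genes also grew. Cdk4 and Ccnd1 passed in each of the 12 fits that left out 1 library. In MPNST against nerve, 6 genes rose (these 5 and Cdkn2b) and none fell, against 27.6% of 16384 genes called higher and 18.4% lower. The 3 comparisons share samples, so their calls are not independent of each other.

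The Cdkn2a locus split the MPNST libraries. Cdkn2a had 10.7, 1.44, 9.76, 692, 11.3 and 0.314 CPM in MPNST libraries 1 to 6. Library 4 alone held 16118 counts of the gene, and library 6 held 6. Libraries 1, 3 and 5 lay just above the highest neurofibroma library (8.58 CPM), and libraries 2 and 6 below the lowest (3.54 CPM). After TMM scaling, library 2 stood at 3.77 CPM, within the neurofibroma range of 3.41 to 8.37.

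The same library led the neighbouring genes. Cdkn2b had 18.1, 2.11, 14.3, 299, 24.8 and 1.78 CPM in MPNST libraries 1 to 6. Mtap had 36.0, 7.23, 23.4, 307, 78.7 and 22.2 CPM. For all 3 genes library 4 was the highest and libraries 2 and 6 the lowest, but Mtap in library 6 stayed within the neurofibroma range (19.6 to 26.6 CPM) while Cdkn2a and Cdkn2b in that library were in or under the nerve range. After TMM scaling, Mtap in library 2 was 18.9 CPM, inside the scaled neurofibroma range of 18.8 to 25.4, and Cdkn2b there was 5.54 CPM, under the scaled range of 7.48 to 14.1. The within-library log2 ratio of Cdkn2a to Mtap was 1.17 in library 4 and -5.92 in library 6, and between -2.79 and -1.25 in the other four.

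With all 6 libraries, the fitted log2 change against neurofibroma was 4.46 for Cdkn2a (SE 1.49, edgeR adjusted p = 0.0305). It was 2.50 for Cdkn2b (SE 0.99, adjusted p = 0.0592, edgeR) and 1.73 for Mtap (SE 0.63, adjusted p = 0.0427, edgeR). Without MPNST library 4, these fell to 0.54 for Cdkn2a, 0.39 for Cdkn2b and 0.63 for Mtap, and none of the 3 passed (edgeR adjusted p = 0.529, 0.577 and 0.138). Library 4 thus carried most of the group difference at this locus. With any single neurofibroma library removed, neither Cdkn2a nor Mtap passed, and Mtap missed the threshold without MPNST library 5 as well. DESeq2 gave no adjusted p for Cdkn2a and Cdkn2b here, and limma-voom with quality weights gave Cdkn2a a log2 change of 1.54 (adjusted p = 0.0949).

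Against nerve, Cdkn2a and Cdkn2b passed with or without library 4. The log2 change of Cdkn2a was 6.73 (SE 1.74, edgeR adjusted p = 0.00803) and 2.82 without library 4. That of Cdkn2b was 4.34 (SE 1.07, edgeR adjusted p = 0.0065) and 2.23 without library 4. Mtap, at 1.90 (SE 0.63, edgeR adjusted p = 0.0278), fell to 0.80 without library 4 and missed the threshold there (adjusted p = 0.0679, edgeR) and without any 1 nerve library. None of the ratios among Cdkn2a, Cdkn2b and Mtap passed in either MPNST comparison. The closest were Cdkn2b to Mtap (difference of 1.4 from nerve, exact permutation, adjusted p = 0.053) and Cdkn2a to Mtap (2.42 from nerve, exact permutation, adjusted p = 0.0859).

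**Figure D3:**
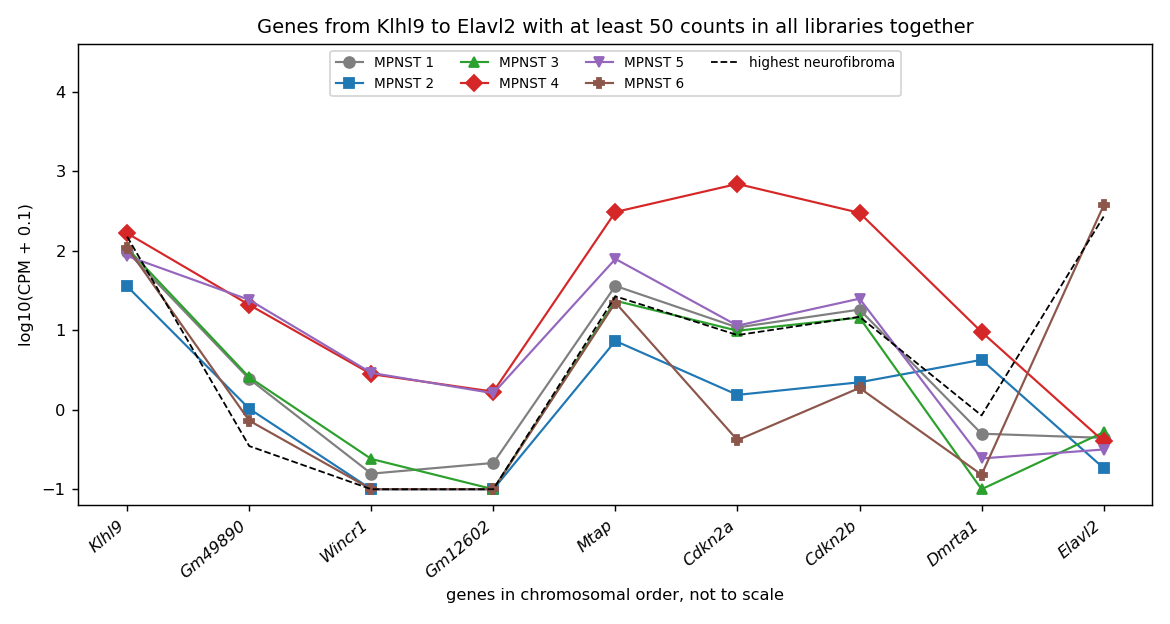
log10(CPM + 0.1) of the 9 genes from Klhl9 to Elavl2 with at least 50 counts over all libraries, in chromosomal order (x axis, not to scale), for each MPNST library; the dashed line is the highest neurofibroma library. Library 4 rises above the others from Mtap to Dmrta1, and libraries 4 and 5 share high values of Gm49890, Wincr1 and Gm12602.

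Genes on either side of the 3 were read in the same libraries. Klhl9, a ubiquitin ligase adaptor on the Mtap side, had 166 CPM there against 35.5 to 109 CPM in the other MPNST libraries and up to 150 in neurofibroma. Between Klhl9 and Mtap lies the cluster of type I interferon genes, which were at or near 0 in every library. Next to Mtap, the long non-coding RNAs Gm49890, Wincr1 and Gm12602 had 20.7, 2.71 and 1.59 CPM in library 4 and 24.0, 2.81 and 1.51 CPM in library 5, where the other MPNST libraries reached at most 2.46, 0.14 and 0.11 CPM. Library 5 also held the second-highest Mtap (78.7 CPM), without a matching Cdkn2a value. Beyond Cdkn2b, Dmrta1 had 9.40 CPM in library 4. Elavl2, a neuronal RNA-binding protein gene, had 0.0846 to 0.421 CPM in MPNST libraries 1 to 5. It had 371 CPM in library 6, the MPNST library with the most sensory neuron markers, and reached 401 CPM in nerve and 269 CPM in neurofibroma. Genes other than Cdkn2a, Cdkn2b and Mtap in this account were chosen for their position, with Gm49890, Wincr1 and Gm12602 named after their values were seen.

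**Figure D4:**
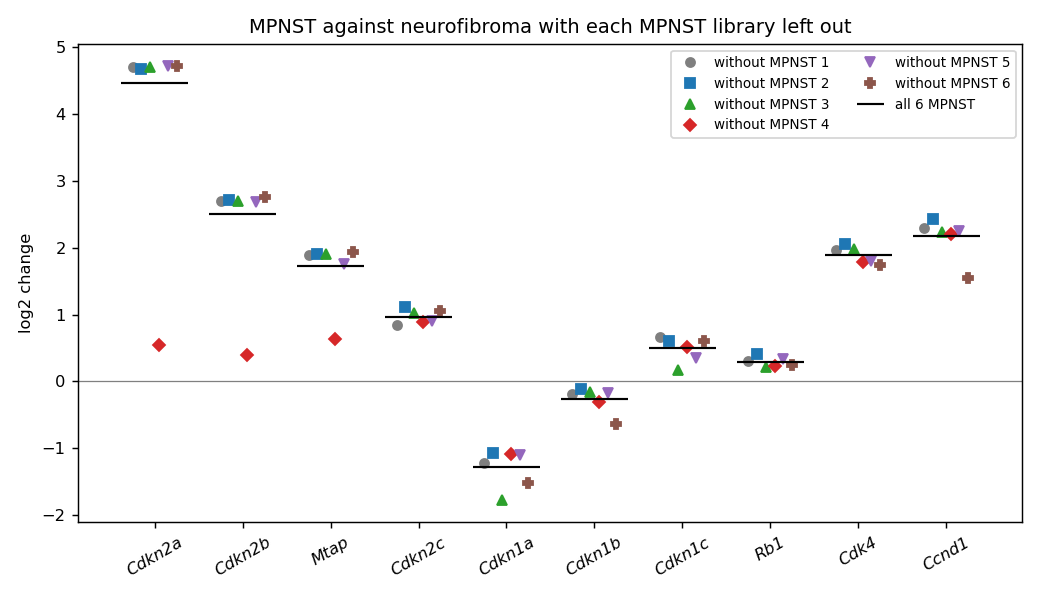
log2 change of each gene in MPNST against neurofibroma with 1 MPNST library left out (points, y axis) and with all 6 (black line). Without library 4, Cdkn2a, Cdkn2b and Mtap drop to 0.54, 0.39 and 0.63, while Cdk4 stays between 1.75 and 2.06.

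Cdkn2c was higher in MPNST without such a library. It had 30.5, 2.92, 12.9, 26.3, 26.9 and 14.5 CPM in libraries 1 to 6, so that 4 of 6 lay above the highest neurofibroma library (14.2 CPM), library 6 only just, with library 3 inside the neurofibroma range and library 2 below it. After TMM scaling libraries 1, 4 and 5 lay above the neurofibroma maximum of 13.9 CPM, libraries 3 (13.95) and 6 (13.5) beside it, and library 2 (7.65) inside the range. The log2 change was 0.97 against neurofibroma (SE 0.32, edgeR adjusted p = 0.0286) and 2.61 against nerve (SE 0.31, edgeR adjusted p = 7.62e-05). The first of these calls was lost in 6 of the 12 fits that left out 1 library (adjusted p up to 0.0669), the second in none. Cdkn2d, the p19 INK4 gene and no member of the set, went the other way: it fell by 1.84 on the log2 scale against neurofibroma (SE 0.34, edgeR adjusted p = 0.0016), with 1.82 to 34.7 CPM in MPNST and 42.1 to 64.0 CPM in neurofibroma. The RNA levels of the INK4 genes therefore did not move as one. Among MPNST libraries Cdkn2d was highest in library 6 (34.7 CPM), which also held the most sensory neuron markers (6799 CPM). In this comparison 9 of 15 sensory neuron markers fell, and their part in the fall of Cdkn2d was not tested.

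Cdkn1a had 39.1, 2.71, 87.7, 12.7, 20.9 and 84.3 CPM in MPNST libraries 1 to 6. Libraries 3 and 6 lay within the neurofibroma range of 78.0 to 145 CPM, and libraries 1, 2, 4 and 5 below it. With all libraries its log2 change of -1.28 did not pass (SE 0.56, edgeR adjusted p = 0.0829). Without library 3, which held muscle markers, it was -1.78 (edgeR adjusted p = 0.0181), without library 6 it was -1.53 (edgeR adjusted p = 0.0444), and without libraries 2, 3 and 6 it was -2.23 (edgeR adjusted p = 0.000682). DESeq2 with all libraries gave -1.36 (adjusted p = 0.0463) and limma-voom with quality weights -1.79 (adjusted p = 0.00211). Against nerve the change was -0.86 (edgeR adjusted p = 0.237), and -1.45 with limma-voom (adjusted p = 0.0084). The part of muscle and neuron RNA in the 2 high libraries was not tested. In library 4, where Cdkn2a was highest, Cdkn1a was the second lowest of the MPNST libraries.

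Cdkn1b had 93.3, 20.1, 58.3, 141, 89.4 and 266 CPM in MPNST libraries 1 to 6. Library 6 stood above all neurofibroma libraries, library 4 inside their range and the other four below it. The log2 change against neurofibroma was -0.27 (95% interval -0.93 to 0.40, edgeR adjusted p = 0.503), and -0.64 without library 6 (edgeR adjusted p = 0.0121). Cdkn1c ranged from 1.99 to 21.03 CPM, across the range of both other groups (log2 change 0.49, 95% interval -0.44 to 1.43). Rb1 lay at 42.9 to 58.3 CPM in 5 MPNST libraries, each above the highest neurofibroma library (42.5 CPM), and at 8.24 CPM in library 2. After TMM scaling Rb1 was 21.6 CPM in library 2 and 39.3 CPM in library 5, the latter inside the scaled neurofibroma range of 30.8 to 40.8. Its log2 change was 0.28 (95% interval -0.13 to 0.70, edgeR adjusted p = 0.25) and 0.41 without library 2 (edgeR adjusted p = 0.0297). Against nerve, the changes of Cdkn1b (-0.28), Cdkn1c (0.12) and Rb1 (0.12) did not pass either.

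Cdk4 and Ccnd1 were higher in MPNST whichever single library was left out. Cell markers moved in the same comparison, where 25.3% of all genes rose and 16.8% fell. Against neurofibroma 8 of 8 macrophage markers rose (summed to 121 to 257 CPM in neurofibroma and 133 to 2636 CPM in MPNST). Of 12 Schwann cell markers 8 fell. T cell markers summed to 2.1 to 5.55 CPM in neurofibroma. In MPNST they summed to 274, 23.3 and 75.8 CPM in libraries 1, 4 and 5. Libraries 2, 3 and 6 held 1.61, 5.41 and 2.99 CPM. All 5 tested T cell markers rose. None had passed the filter on low counts in neurofibroma against nerve. MPNST values thus decided which were tested, and the count of 5 supports nothing. The part of these cells in the MPNST changes of the 10 genes was not tested. Cdk4 had 124, 22.0, 84.4, 230, 219 and 250 CPM in MPNST libraries 1 to 6, above the highest neurofibroma library (48.4 CPM) in all but library 2, which reached 57.6 CPM after scaling. The log2 change was 1.89 against neurofibroma (SE 0.29, edgeR adjusted p = 0.000512) and 2.45 against nerve (SE 0.31, edgeR adjusted p = 0.000112). Ccnd1 had 512, 48.0, 498, 768, 661 and 2399 CPM. Again library 2 alone fell below the neurofibroma maximum of 248 CPM, and scaled it stood at 126 CPM, inside the neurofibroma range.

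The log2 change of Ccnd1 was 2.17 against neurofibroma (SE 0.53, edgeR adjusted p = 0.00687), 1.54 without library 6, and 4.63 against nerve (SE 0.65, edgeR adjusted p = 0.000236). The within-library log2 ratio of Ccnd1 to Cdk4 was 2.05 ± 0.759 in MPNST and 1.99 ± 0.528 in neurofibroma, a difference of 0.07 (exact permutation, adjusted p = 0.893). Against nerve that ratio differed by 2.06 (exact permutation, adjusted p = 0.0114). In MPNST the ratio ran from 1.13 in library 2 to 3.26 in library 6, across the neurofibroma range of 1.16 to 2.49.

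The 3 D-type cyclins differed between MPNST libraries. Library 6, highest for Ccnd1, had 38.3 CPM of Ccnd2 and 25.0 CPM of Ccnd3, where libraries 1, 3, 4 and 5 had 109 to 321 CPM of Ccnd2 and 93.3 to 161 CPM of Ccnd3. Library 2 had 17.1 CPM of Ccnd2 and 39.2 CPM of Ccnd3, or 44.8 and 103 CPM after scaling, against 35.8 and 23.3 scaled CPM in library 6. Cdk6, the other D-cyclin kinase, had 17.9 CPM in library 6 (16.7 scaled), 11.7 CPM in library 2 (30.8 scaled) and 69.4 to 109 CPM in the others. Library 6 was highest for Ccne1, which encodes cyclin E1 (34.3 CPM, others at most 10.2), and for E2f1 (47.4 CPM, others at most 24.1). It was also highest for Mki67, a marker of cycling cells (572 CPM, others 6.72 to 158). These single-library values carry no test.

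**Figure D5:**
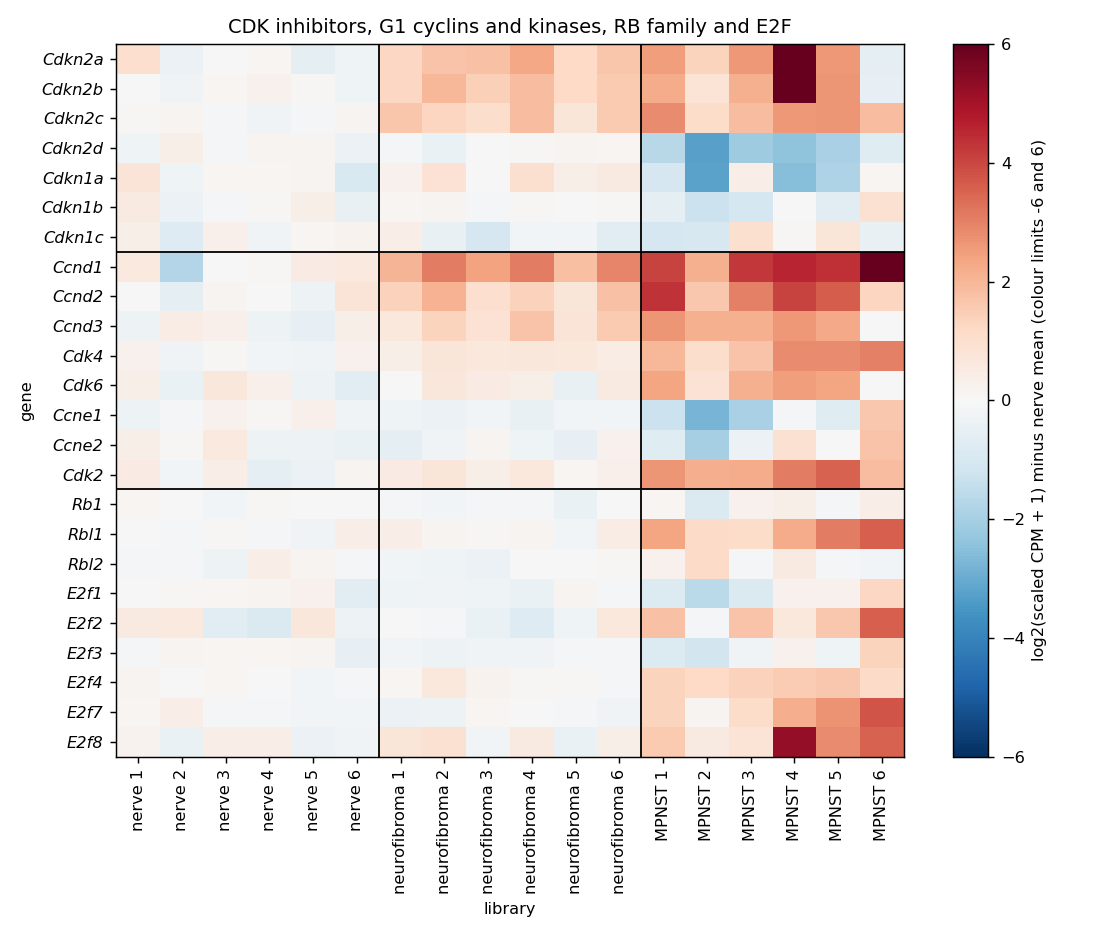
log2(TMM-scaled CPM + 1) minus the nerve mean for 24 genes (rows: inhibitors, G1 cyclins and kinases, RB family and E2F) in 18 libraries (columns); red is higher and blue lower than nerve. Ccnd1, Ccnd2 and Ccnd3 are red across the neurofibroma libraries, Cdkn2d is blue in all 6 MPNST libraries, and library 6 has the lowest Cdkn2a, Ccnd3 and Cdk6 and the highest Ccne1 and E2f1 of the MPNST libraries.

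The wider G1 pathway was followed through 7 lists of 88 genes in all, described by counts without a set test. The 10 members are among the 88 and are counted again in their lists. The lists of inhibitors and of locus neighbours, whose genes were largely described above, are not counted below. Of 13 cyclins and kinases of G1, 4 rose in neurofibroma against nerve: Ccnd1, Cdk4, Ccnd2 (log2 change 1.43, SE 0.27, edgeR adjusted p = 0.0071) and Ccnd3 (1.17, SE 0.24, edgeR adjusted p = 0.00906). All 3 D-type cyclins thus rose. The median of the list was 0.08 against -0.02 for all genes, of which 7.94% rose and 6.00% fell. In MPNST against neurofibroma 8 of 13 rose and none fell, with a list median of 1.06 against 0.22 for all genes, of which 25.3% rose and 16.8% fell. Among them were Cdk2, the partner of cyclin E (2.50, SE 0.30, edgeR adjusted p = 9.81e-05), and Cdk6 (1.76, SE 0.40, edgeR adjusted p = 0.00498).

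Of the RB and E2F family, 12 genes were tested in neurofibroma against nerve. None rose and 1 fell, the E2F partner Tfdp2 (log2 change -0.39, SE 0.10, edgeR adjusted p = 0.0239). Over all genes 7.94% rose and 6.00% fell there, so these counts are near the background. In MPNST against neurofibroma 6 of 13 rose and none fell, where 25.3% of all genes rose and 16.8% fell. The list median was 0.59 against 0.22 for all genes. Those that rose included Rbl1, the p107 relative of Rb1 (2.66, SE 0.42, edgeR adjusted p = 0.000603), E2f4 (1.34, SE 0.18, edgeR adjusted p = 0.000191) and E2f7 (3.96, SE 0.70, edgeR adjusted p = 0.00112). Rb1 and E2f1 were not among them.

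Of 20 S phase and mitosis genes that E2F factors are known to regulate, 3 rose in neurofibroma: the thymidylate synthase gene Tyms (log2 change 0.99, edgeR adjusted p = 0.0177) and the replicative helicase genes Mcm3 (1.06, edgeR adjusted p = 0.0446) and Mcm7 (0.56, edgeR adjusted p = 0.0343). The list's median log2 change was 0.34, against -0.02 for all genes, of which 7.94% rose. All 20 rose in MPNST against neurofibroma (25.3% of all genes did), with a median of 3.22, and all 20 rose against nerve, with a median of 3.62. Top2a, the topoisomerase of dividing cells, led by size among the named ones (5.28, SE 0.75, edgeR adjusted p = 0.000294, against neurofibroma). The 6 marker genes of cycling cells summed to at most 16.2 CPM in any nerve library and 16.5 CPM in any neurofibroma library. In MPNST they summed to between 13.4 CPM (library 2) and 1307 CPM (library 6).

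Of 13 genes listed for turnover of G1 proteins, both inhibitors and cyclins, 12 were tested in neurofibroma against nerve. None passed in edgeR, where 7.94% of all genes rose and 6.00% fell, and 4 had an unadjusted p below 0.05. DESeq2 and limma-voom were not read gene by gene for this list. Over all 7 lists together they called 19 and 23 genes in this comparison, against 13 in edgeR. Calls over all genes also grew, to 3549 and 4026 against 2295 in edgeR. In MPNST against neurofibroma 5 of 13 rose and 2 fell, where 25.3% of all genes rose and 16.8% fell, with a list median of 0.65 against 0.22 for all genes. Cks1b, a cofactor in the degradation of p27, rose (log2 change 2.91, SE 0.37, edgeR adjusted p = 0.000152). The ubiquitin ligase genes Skp1 (-2.02, SE 0.22, edgeR adjusted p = 4.58e-05) and Fbxw7, whose product targets cyclin E (-1.68, SE 0.19, edgeR adjusted p = 5.94e-05), fell. Sensory neuron markers, of which 9 of 15 fell, moved with them; their part was not tested.

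Of 16 genes of the ARF and p53 axis, 1 rose and 1 fell in neurofibroma against nerve: Phlda3 (log2 change 0.85, edgeR adjusted p = 0.00771) and Zmat3 (-0.58, edgeR adjusted p = 0.0117), both known p53 targets. Over all genes 7.94% rose and 6.00% fell there, so the list's counts are near the background. In MPNST against neurofibroma 10 rose and 1 fell, with a median of 1.24, where 25.3% of all genes rose and 16.8% fell at a median of 0.22. Mdm4, an inhibitor of p53 (1.23, SE 0.16, edgeR adjusted p = 0.000192), Npm1, which encodes a binding partner of ARF (1.54, SE 0.22, edgeR adjusted p = 0.000322), and Gtse1, a gene of dividing cells (3.13, SE 0.60, edgeR adjusted p = 0.00188), had the smallest adjusted p.

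Levels of different genes can be compared only per length, here as CPM per kilobase of the longest coding transcript in GENCODE M21, which is another release than the authors' build implies. In neurofibroma, Cdkn1a (37.5 to 69.5), Ccnd1 (27.4 to 66.2) and Cdkn1b (28.4 to 33) were the highest of the set; the range of Ccnd1 overlapped both others, and every library had more Cdkn1a than the highest Cdkn1b value. Cdk4 followed at 17.8 to 23.6. Mtap (7.01 to 9.51), Rb1 (6.92 to 9.13), Cdkn2b (5.62 to 10.5), Cdkn2a (3.96 to 9.59), Cdkn1c (2.77 to 8.0) and Cdkn2c (2.43 to 5.77) were lower. In this lower set Cdkn2c lay below Mtap and Rb1 without overlap, and the other pairs overlapped. In nerve, Ccnd1 (2.01 to 12.2) lay in that lower set, below Cdkn1a (19.8 to 63.8) and Cdkn1b (22.3 to 43.1). In MPNST library 4, Cdkn2a reached 773 per kilobase, above Ccnd1 (205), Cdkn2b (215), Cdk4 (112) and Mtap (110).

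The genes whose pattern over the 18 libraries was most like that of a member were found by Spearman's rho among 14669 named genes, as a description. The groups and shared libraries shape these values. For Cdkn2a they were Casp4 (0.957), Axl (0.953) and Mdfic (0.948), and for Cdkn2b Prss23 (0.973), Mdfic (0.971) and S100a4 (0.965). For Ccnd1 they were Septin10 (0.961), Itga1 (0.959) and Mex3a (0.957). The likeness of Cdkn1a to any gene was lower, with Sema3g (0.88), Rapsn (0.876) and Fxyd6 (0.874) at the top.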

How the data were processed

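Poly(A) RNA from 18 mouse samples was sequenced. Estimated counts for 51290 genes were deposited, made by the authors with Salmon 1.4.0 on GRCm39, per the submitters' processing notes, which also name FastQC and DESeq2. The annotation release is not given in the sources used here. Counts were rounded to whole numbers. Columns were matched to samples by name, 0 columns had no sample, and no columns were identical. Each pair of groups was fitted with edgeR 4.0.16 (R 4.3.3; filterByExpr, TMM, glmQLFit, glmQLFTest, two-sided), with a call at a Benjamini-Hochberg adjusted p below 0.05 over all genes tested. SE is the log2 change divided by the square root of F, and intervals cover 95%. Within-library ratios had 1 count added and were tested with exact permutations (scipy 1.17.1). Steps were tested on simulated data.

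The members and gene lists were chosen with earlier results of these data known. Named genes are all members and, per G1 list and comparison, up to 3 other called genes with the smallest adjusted p; for likeness, the 3 genes with the highest rho. Values of single further genes were chosen after their values were seen. Salmon divides shared reads by estimation; 3.24% of the 31-base words of Cdkn1a and 2.63% of those of Cdk4 occur in other genes. Promoter windows and gene order are RefSeq's. Alternatives used DESeq2 1.42.0, limma 3.58.1, other scalings and filters, and fits without single libraries.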

Additional observations from a re-analysis of the deposited data

Results flagged for a closer look

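Among 51 sets of 6 libraries (10 genes and 7 ratios in each group), 7 had a library far from the rest by Dixon's test. Its chance rate of about 1 in 20 assumes independent sets with a normal spread. CPM were not log-transformed and the sets share genes and libraries, so the 7 cannot be set against that rate. At the high end stood Cdkn2a in nerve library 1 (3.01 CPM), Cdkn2a, Cdkn2b and Mtap in MPNST library 4 (692, 299 and 307 CPM), and Ccnd1 in MPNST library 6 (2399 CPM). At the low end stood Rb1 in MPNST library 2 (8.24 CPM) and the log2 ratio of Ccnd1 to Cdk4 in nerve library 2 (-1.64).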

How the results depend on the processing

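For the 10 genes in neurofibroma against nerve, 5 calls stood under RLE and upper quartile scaling, both other filters, DESeq2, limma-voom and on leaving out each library. The call count was 3 at adjusted p below 0.01, 0 in 1 model of all 18 libraries, and 0 within either run of the table's columns (edgeR, with 5 of 10 at an unadjusted p below 0.05 in each run; DESeq2 and limma-voom with all libraries called 5). The column names restart once, which splits every group into 3 and 3; no label calls this a batch, and the split was chosen after seeing the data, as was the fit without MPNST libraries 2, 4 and 6, which keeps libraries whose Cdkn2a had been seen to lie near each other and supports nothing on that gene. Log2 changes of the 5 genes within the runs ranged from 0.54 for Cdk4 to 3.05 for Cdkn2a. Over all genes in this comparison the calls numbered 1438 without a filter on low counts, 3549 with DESeq2, 4026 with limma-voom, 2 in 1 model of all 18, 520 at adjusted p below 0.01, 0 in the first run and 5 in the second (3002 and 2796 genes at an unadjusted p below 0.05), and 1147 to 3817 with a library left out (without neurofibroma library 4 and without nerve library 6). For the list genes they numbered 23 with limma-voom, 0 in 1 model of all 18, 6 at adjusted p below 0.01, 0 and 0 in the runs (16 and 17 at an unadjusted p below 0.05), and 10 to 22 with a library left out. The cause of these differences was not tested, and neither was the part of the fewer samples in each run.

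In MPNST against neurofibroma the 10 genes gave 3 calls without a filter on low counts and 2 at adjusted p below 0.01. They gave 9 calls without MPNST libraries 2 and 6, 8 without 2, 3 and 6, and 8 without 2, 4 and 6. They gave 2 and 1 in the runs, and 2 (without MPNST library 4) to 8 (without MPNST library 6) with a library left out. All genes gave 6948 calls in the main fit, 4063 at adjusted p below 0.01, and 10234 without libraries 2 and 6. They gave 11247 without 2, 3 and 6, 10965 without 2, 4 and 6, and 4375 and 1473 in the runs. List genes gave 35 and 23 in the runs. In MPNST against nerve the 10 genes gave 6 calls in the main fit and 4 with DESeq2. They gave 5 without a filter on low counts and 3 in the second run. All genes gave 7534, 10227, 8141 and 1136 calls in those fits, and 4633 at adjusted p below 0.01. List genes gave 38 and 19 in the runs.

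Changes near 0 reversed sign. That of Cdkn1b in neurofibroma against nerve was 0.0105 with upper quartile scaling, 0.00111 without a filter, 0.0163 in 1 model of all 18, and -0.0847 to 0.109 with a library left out. That of Cdkn1c was -0.267 in the first run against neurofibroma. Against nerve it was -0.0453 without a filter, -0.0105 with DESeq2, -0.227 with limma-voom, -0.683 in the first run, and -0.228 to 0.291 with a library left out. That of Rb1 against nerve was -0.0023 without a filter and -0.0442 in the first run. With a library left out, the differences in log2 ratio between MPNST and neurofibroma ranged from -0.579 to 0.84 for Cdkn2a to Mtap, -0.514 to 0.198 for Cdkn2b to Mtap, -0.0649 to 0.641 for Cdkn2a to Cdkn2b and -0.175 to 0.252 for Ccnd1 to Cdk4. Those between MPNST and nerve ranged from -0.0272 to 0.39 for Cdkn2c to Cdk4 and -0.0251 to 0.669 for Cdkn1c to Cdkn1b. With 0.5 counts added in place of 1, no ratio crossed the threshold. No paired analysis was possible because the labels give no replicate numbers shared between groups. Depth limits Cdkn2a in nerve and MPNST library 6, where 4 to 59 and 6 counts were seen, and counting intervals would cover counting error only.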
